A study of Mus musculus with 6 samples.

Results

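The genes described here were 4 FXYD regulators of the sodium pump (Fxyd1, Fxyd5, Fxyd6 and Fxyd7) and its 3 beta subunits (Atp1b1, Atp1b2 and Atp1b3), 7 of the 19938 genes that had a probe set with a single gene symbol. The set was chosen from the fall of Fxyd5 in the comparison given below, so the values of Fxyd5 are a description without a test. The other 6 genes entered by their family name, with earlier results of these data known. Expression was measured in N2A (neuro 2A) cells, an established mouse neuroblastoma line of neural crest origin, on 3 control and 3 Pax6 knockdown arrays of whole-transcript labelled RNA. Control cultures received a non-targeting vector and knockdown cultures a vector expressing a short hairpin RNA against Pax6, the transcription factor gene whose loss the study followed. Both were transfected transiently with 1.5 µg of vector, RNA was taken 3 days later and 200 ng per sample was labelled. Transfected and untransfected cells were not separated, so each value is an average over a mixed culture, and in such bulk RNA fewer expressing cells and less RNA per cell cannot be told apart.

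The sodium pump, or Na,K-ATPase, exports sodium and imports potassium at the cost of ATP, and so sets the ion gradients that neurons use for signalling and for secondary transport. Each pump has a catalytic alpha subunit, the P-type ATPase proper, and a glycosylated beta subunit that the alpha subunit needs to fold and to reach the plasma membrane. FXYD proteins are small single-span membrane proteins, named for a shared sequence motif, that sit beside the pump and change its affinity for ions or its rate.

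Pax6 itself was lower after knockdown. Its log2 values were 8.79, 8.82 and 8.81 on the control arrays and 8.48, 8.30 and 8.50 on the knockdown arrays. The difference was -0.38 (SE 0.071; adjusted p = 0.0382, limma with Benjamini-Hochberg adjustment over 11424 tested genes), so that Pax6 fell by 23.2% on the linear scale. The groups did not overlap, and the array with the lowest Pax6 was knockdown replicate 2. This call was lost without any single control array, without knockdown replicate 3 and with the variance filter, and the adjusted p reached 0.231 over the alternatives that were tried.

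Sequence upstream of 2 of these genes is shown to place the gene that fell beside a beta subunit gene whose difference was small. Promoter windows of 300 bases (250 before the start and 50 after it), from RefSeq on assembly GRCm38.p6, matched 5 of the 7 genes, namely Fxyd1, Fxyd5, Fxyd6, Atp1b1 and Atp1b3. Fxyd5 lies on the minus strand of chromosome 7, directly downstream of Fxyd7, and the 183 bases that separate its start from the end of Fxyd7 (chr7:31042332-31042514) are given whole. Atp1b1 lies on the minus strand of chromosome 1, and the 250 bases before its start (chr1:164458356-164458605) are given. Capitals mark the longest run of C and T for Fxyd5, and the GC boxes (GGGCGG on either strand) for Atp1b1.
Fxyd5: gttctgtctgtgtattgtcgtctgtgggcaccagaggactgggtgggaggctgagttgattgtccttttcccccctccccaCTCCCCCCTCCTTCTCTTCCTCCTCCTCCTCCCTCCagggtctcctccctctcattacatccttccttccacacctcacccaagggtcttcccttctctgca
Atp1b1: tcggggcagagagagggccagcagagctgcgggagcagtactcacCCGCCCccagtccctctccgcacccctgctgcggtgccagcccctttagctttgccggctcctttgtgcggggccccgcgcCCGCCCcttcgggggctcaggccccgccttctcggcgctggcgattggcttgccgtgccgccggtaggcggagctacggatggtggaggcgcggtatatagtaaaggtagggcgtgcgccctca

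The Fxyd5 sequence held 1 CpG, a GC content of 57.9% and a pyrimidine run of 36 bases. In the 300-base windows of all genes the median longest run was 9.0 bases, and the Fxyd5 run was longer than that of 99.7% of the 32851 windows. The Atp1b1 sequence held 24 CpG, a GC content of 70.4% and 2 GC boxes. Over their whole windows, Atp1b1 held 31 CpG and the 2 windows of Atp1b3 held 39 and 34, against a median of 7.0 in all windows, whereas Fxyd1 and Fxyd5 each held 6 and Fxyd6 held 12. GGGCGG on either strand occurred in 35.7% of all windows. Of the windows matched here it was found in that of Atp1b1 and in 1 of those of Atp1b3, where it occurred 6 times. TTCACGC on either strand, the core of a PAX6 paired-domain consensus, was searched as well. It occurred in 1.26% of all windows and in none of those matched here, which says only that these letters are not in these windows.

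Fxyd5, also called dysadherin, encodes an FXYD protein that raises pump activity and is also known for lowering cell-cell adhesion in epithelial and tumour cells. Its log2 values were 10.91, 11.06 and 10.88 on the control arrays and 9.67, 9.69 and 9.82 on the knockdown arrays. Every knockdown array was thus far below every control array. The means were 10.95 ± 0.096 and 9.73 ± 0.083 (SD, n = 3 each), a difference of -1.22 on the log2 scale, so that the linear value fell by 57.0%. Between arrays of the same replicate number, the difference was -1.23, -1.37 and -1.05. Over the 16 alternatives, some of which cannot change a difference of means, it lay between -1.27 and -1.14. These values are those the set was built on and carry no test.

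The other FXYD genes had smaller differences, and their groups overlapped. Fxyd6, which encodes phosphohippolin, an FXYD protein abundant in brain, had log2 values of 8.93, 8.81 and 8.83 in control and 8.68, 8.96 and 8.70 after knockdown. Knockdown replicate 2 was the highest of all 6 arrays and the other 2 knockdown arrays were the lowest, so the groups overlapped. The difference was -0.08 (SE 0.088; 95% interval -0.284 to 0.124; adjusted p = 0.719, limma). Leaving out single arrays moved it between -0.17, without knockdown replicate 2 (adjusted p = 0.161), and -0.03, without knockdown replicate 1. It was -0.04 without control replicate 1 and -0.04 without knockdown replicate 3.

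Fxyd7, the immediate neighbour of Fxyd5, encodes a brain FXYD protein known to lower the potassium affinity of pumps that contain certain alpha isoforms. Its log2 values were 7.68, 7.57 and 7.65 in control and 7.56, 7.71 and 7.63 after knockdown. The groups overlapped almost completely, with means of 7.63 ± 0.060 and 7.63 ± 0.073 (SD, n = 3 each). The difference was 0.00088 (SE 0.066, 95% interval -0.152 to 0.154, adjusted p = 0.997 by limma). The interval does not reach the difference of Fxyd5, but Fxyd7 lay close to the median of all probe sets (7.55), where differences may be compressed.

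Fxyd1, which encodes phospholemman, a phosphorylated regulator of the pump in heart, muscle and brain, had log2 values of 7.19, 7.23 and 7.22 in control and 7.28, 7.48 and 7.15 after knockdown. It was above the array median on fewer than 3 arrays, so it did not pass the filter on low values, and its difference of 0.09 was set by knockdown replicate 2, with the other 2 knockdown arrays on both sides of the controls. Knockdown replicate 2 gave the highest knockdown value for Fxyd1, Fxyd6 and Fxyd7, and also for Atp1b2. Its 25th percentile over all probe sets was the highest of the 6 arrays, at 6.22 against 6.11 to 6.17, and its 75th percentile was the lowest, at 9.65 against 9.70 to 9.79. The part of this in the values of Fxyd1, Fxyd6, Fxyd7 and Atp1b2 was not tested.

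**Figure D1:**
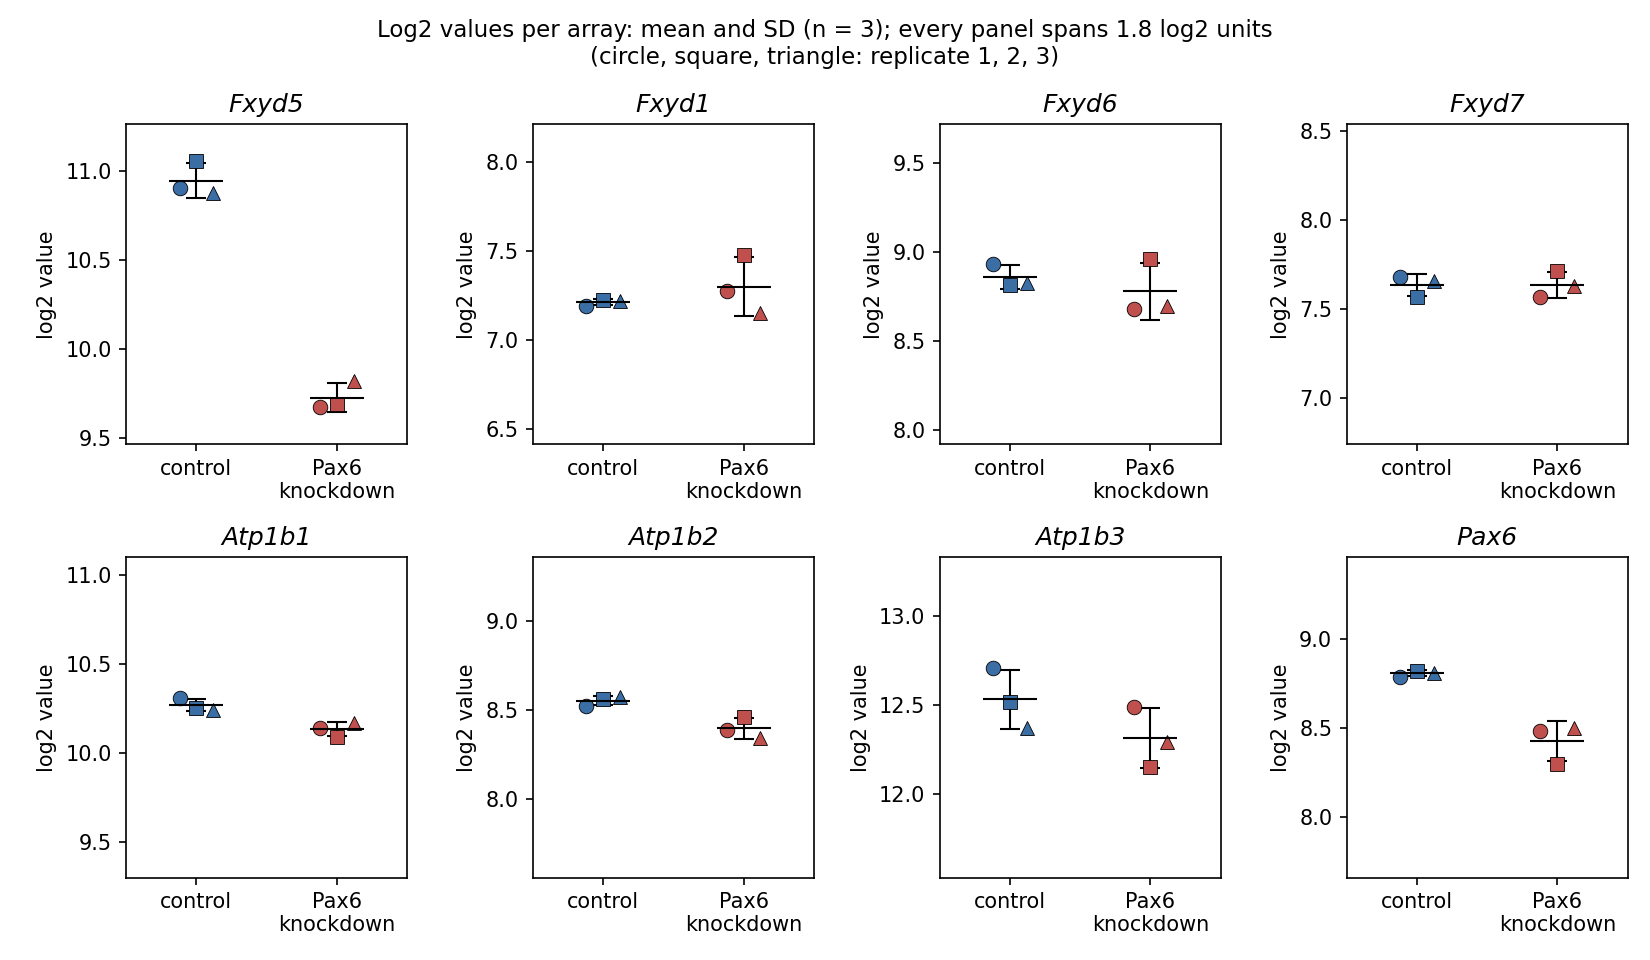
Log2 expression of the 7 genes on each of the 6 arrays, with control and Pax6 knockdown side by side. The last panel shows Pax6, each marker is 1 array (circle, square and triangle for replicates 1, 2 and 3), and lines are means with SD (n = 3). The group means of Fxyd5 differ by -1.22, those of Atp1b1 and Atp1b2 by -0.14 and -0.16 without overlap, and the arrays of the other 4 genes overlap.

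The 3 beta subunit genes had negative differences, each far smaller than that of Fxyd5. Atp1b1, the widely expressed beta subunit, had log2 values of 10.31, 10.25 and 10.24 in control and 10.14, 10.09 and 10.16 after knockdown. All knockdown arrays were below all control arrays, by a narrow gap. The difference was -0.14 (SE 0.058; 95% interval -0.268 to -0.0022; adjusted p = 0.258, limma), or -8.94% on the linear scale, and it did not pass the 10% FDR.

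Atp1b2, the subunit found mainly in glia and neurons and first known as an adhesion molecule on glia, had log2 values of 8.52, 8.56 and 8.57 in control and 8.39, 8.46 and 8.34 after knockdown. Here too the knockdown arrays were all below the control arrays. The difference was -0.16 (SE 0.060; 95% interval -0.293 to -0.0174; adjusted p = 0.211, limma). It passed 1 of 14 alternatives, the fit with array weights, with an adjusted p of 0.00814.

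Atp1b3, a beta subunit found in many tissues, had log2 values of 12.70, 12.51 and 12.37 in control and 12.49, 12.15 and 12.29 after knockdown. The groups overlapped, since control replicate 3 was below knockdown replicate 1. The difference was -0.22 (SE 0.111; 95% interval -0.476 to 0.039; adjusted p = 0.345, limma). Within replicate numbers the difference was negative each time, at -0.22, -0.36 and -0.08. With the replicate number as a block the SE was 0.068 and the adjusted p 0.0857, so that Atp1b3 passed the 10% FDR in that fit. A second probe set of Atp1b3 gave a difference of -0.24. Leaving out single arrays moved the difference between -0.31, without knockdown replicate 1, and -0.13, without control replicate 1.

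Of the 5 members tested besides Fxyd5, 0 were higher and 0 were lower at 10% FDR by limma, while 2 (Atp1b1 and Atp1b2) had an unadjusted p under 0.05. In the same fit 6.67% of all tested genes passed (762 of 11424), 2.79% higher and 3.88% lower. At an unadjusted p under 0.05, 9.34% of all tested genes were higher and 9.45% lower, and with the replicate block 8.96% were higher and 8.91% lower at 10% FDR. A share of 11.7% of tested genes had knockdown arrays wholly below the control arrays and 13.9% wholly above, and Atp1b1 and Atp1b2 were among the former. At these shares nothing about the members is read from the counts. The lowest 95% bound among these 5 genes was -0.476, for Atp1b3, so a difference of the size seen for Fxyd5 lay outside all 5 intervals. Fxyd7, however, had a mean of 7.63, close to the median of 7.55 over all probe sets. RMA compresses differences near background, so the Fxyd7 interval is a weak limit. The Fxyd5 difference is also the value the set was chosen on, so lying outside the intervals says nothing about smaller falls. The unadjusted intervals of Atp1b1 (-0.268 to -0.0022) and Atp1b2 (-0.293 to -0.0174) lay below 0, though neither gene passed the 10% FDR.

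**Figure D2:**
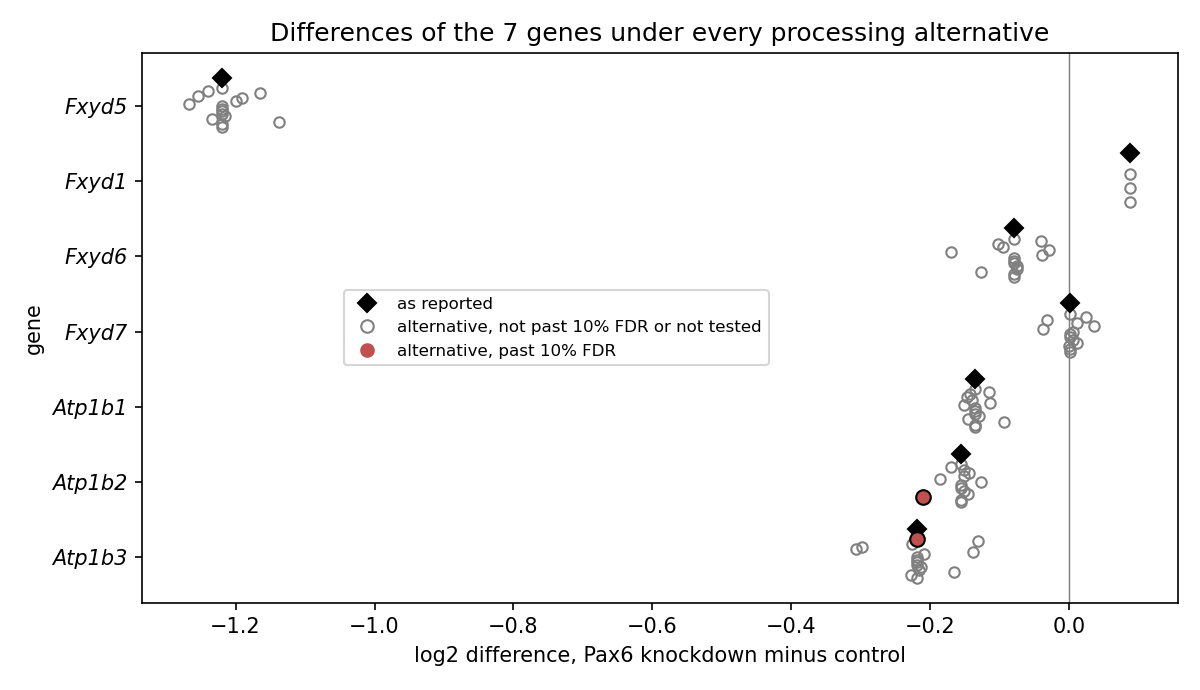
Log2 difference (Pax6 knockdown minus control) of each of the 7 genes as reported (diamonds) and under each processing alternative that kept the gene (circles). Filled circles mark the alternatives in which a gene other than Fxyd5 passed 10% FDR, which were array weights for Atp1b2 and the replicate block for Atp1b3; Fxyd5 was not tested and stays between -1.27 and -1.14.

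Fxyd5 sits in a cluster of FXYD genes, so the 5 protein-coding genes on either side of it were read from the same arrays. In RefSeq order these were Hamp2, Hamp, Usf2, Lsr and Fam187b on one side and Fxyd7, Fxyd1, Lgi4, Fxyd3 and Hpn on the other. None of them showed a difference near that of Fxyd5, but most had low signal. Only Usf2, with a mean of 10.1, was well above the median of all probe sets (7.55). Hamp2, Fxyd7 and Hpn had means of 7.79, 7.63 and 7.61, and the others were below the filter. Differences at such levels may be compressed. Of the 4 that were tested, Usf2, a basic helix-loop-helix transcription factor, differed by 0.13 (adjusted p = 0.288), and all its knockdown arrays were above the controls. Hpn, which encodes the membrane protease hepsin, differed by -0.13 (adjusted p = 0.439). Hamp2, one of the hepcidin genes, differed by -0.09 (adjusted p = 0.783), and Fxyd7 is given above. The genes below the filter differed by -0.15 for Hamp, the hepcidin gene that controls iron export, 0.02 for Lsr, the lipolysis-stimulated lipoprotein receptor, and -0.03 for Fam187b. They differed by 0.01 for Lgi4, a secreted protein of peripheral glia, and 0.01 for Fxyd3.

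**Figure D3:**
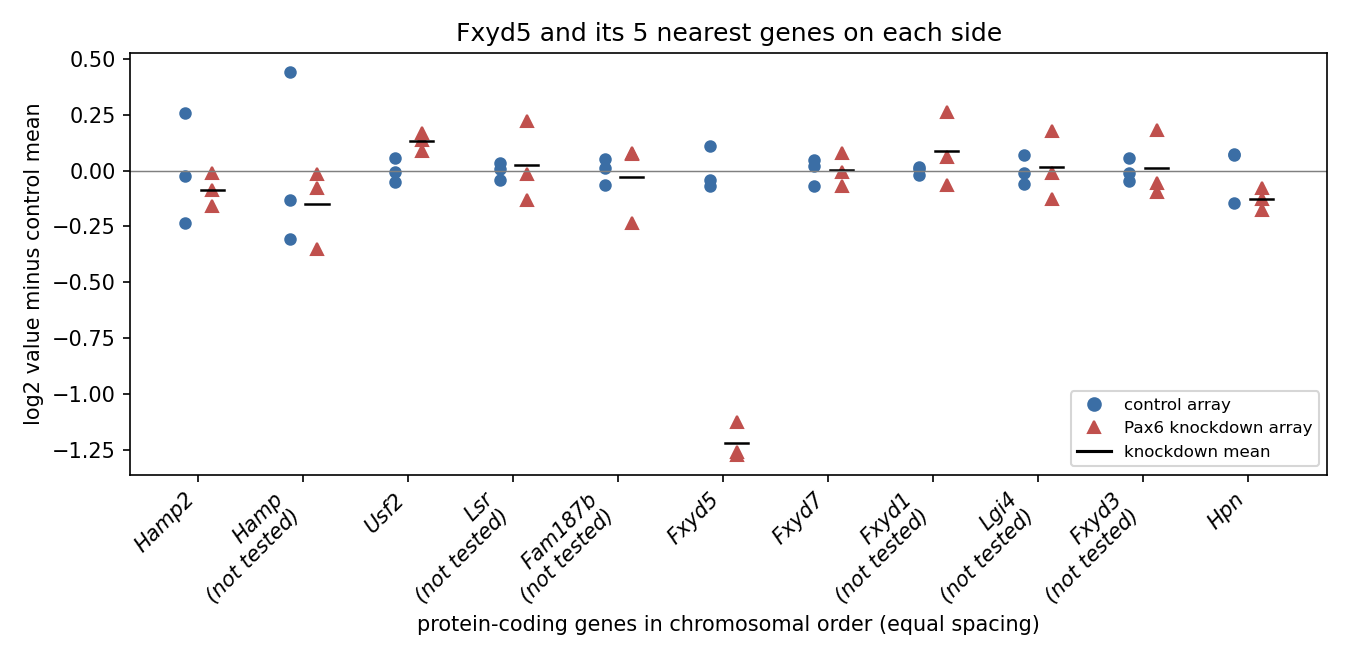
Log2 value of each array minus the control mean, for Fxyd5 and the 5 protein-coding genes on each side of it in chromosome order at equal spacing (circles control, triangles Pax6 knockdown, lines the knockdown mean). The mean difference of Fxyd5 is -1.22, and those of its 10 neighbours lie between -0.15 and 0.13.

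The genes whose 6 values most resembled those of Fxyd5, by the root mean square difference of the values after subtracting each gene's own mean, were Olfml3, Dbh, Chst15, Ptprr and Lrrn4. This likeness over 6 arrays in 2 groups is a description. Olfml3, a secreted olfactomedin-like protein, was nearest at 0.0845, with a difference of -1.23. Dbh, dopamine beta-hydroxylase, the enzyme that makes noradrenaline, followed at 0.112 with a difference of -1.08. Chst15, a chondroitin sulfate sulfotransferase, stood at 0.124 and -1.27, Ptprr, a receptor-type tyrosine phosphatase, at 0.130 and -1.29, and Lrrn4, a neuronal leucine-rich repeat protein, at 0.144 and -1.49. By the same measure the other members lay at 0.525 (Atp1b3) to 0.669 (Fxyd1) from Fxyd5.

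Further genes of the pump family were at low signal. Of 8 analysed, 0 passed the filter on low values: Fxyd2, Fxyd3, Fxyd4, the alpha subunit gene Atp1a4, Atp1b4, and the proton pump genes Atp4a, Atp4b and Atp12a. Their differences lay between -0.10 and 0.11. Of 13 tested genes for partners and regulators of the pump (ankyrins, spectrins, NKAIN proteins and kinases), 0 rose and 1 fell. Of all tested genes 2.79% rose and 3.88% fell. The 13 genes had a median difference of -0.0224 against 0.0168 for all tested genes. Of the 13, 9 were negative, against 44.5% of all tested genes. The gene that fell was Phactr1, known as a regulator of protein phosphatase 1 and actin, at -0.35 (adjusted p = 0.0478). A direct role of Phactr1 at the pump is not certain. At an unadjusted p under 0.05, 0 of 13 were higher and 1 was lower (9.45% of all tested genes were lower), and with the replicate block 2 fell (8.91% of all).

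Transporters that spend the sodium gradient included 18 tested genes, of which 0 rose and 1 fell (2.79% and 3.88% of all tested genes). The median difference of these 18 was -0.0907, with 14 of 18 negative, while 44.5% of all tested genes were negative. The gene that fell was Slc24a2, a potassium-dependent sodium-calcium exchanger of neurons, at -0.30 (adjusted p = 0.0795), with control values of 9.15, 9.32 and 9.38 and knockdown values of 8.93, 9.03 and 8.99. The knockdown values were all below the control values. At an unadjusted p under 0.05, 0 of these 18 genes were higher and 2 lower (9.45% of all tested genes were lower), and with the replicate block 2 fell (8.91% of all).

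Of 10 tested genes for potassium and chloride transport and its kinases, 1 rose and 2 fell, with a median difference of 0.0373. Negative differences were found for 4 of 10, against 44.5% of all tested genes. Of all tested genes 2.79% rose and 3.88% fell. Wnk1, a kinase that controls cation-chloride cotransporters, rose from 11.64, 11.87 and 11.95 to 12.18, 12.29 and 12.24, a difference of 0.41 (adjusted p = 0.0526). Slc12a5, the neuronal potassium-chloride cotransporter that keeps chloride low, fell by 0.31 on the log2 scale (adjusted p = 0.0648). Slc12a9, a relative of these cotransporters, fell by 0.25 (adjusted p = 0.0799). At an unadjusted p under 0.05, 1 of 10 was higher and 3 were lower (9.34% and 9.45% of all tested genes). With the replicate block 2 rose and 2 fell (8.96% and 8.91% of all).

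The sodium pump belongs to the P-type ATPases. Of 18 tested genes of the other branches of that family (calcium pumps, copper pumps, lipid flippases and the ATP13A group), 0 rose and 2 fell. Of all tested genes 2.79% rose and 3.88% fell. The 18 genes had a median difference of -0.136, with 16 of 18 negative, while 44.5% of all tested genes were negative. Atp7a, the copper-exporting ATPase that loads copper enzymes such as dopamine beta-hydroxylase, fell from 10.24, 10.31 and 10.23 to 9.75, 9.33 and 9.59, a difference of -0.70 (SE 0.105; adjusted p = 0.0213). Its groups did not overlap. Atp10b, a lipid flippase, fell by 0.34 (adjusted p = 0.0415). At an unadjusted p under 0.05, 0 of 18 were higher and 6 lower (9.45% of all tested genes were lower), and with the replicate block 6 fell (8.91% of all).

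Each of these 7 pathway calls was lost without control replicate 2 and without knockdown replicate 3. All but Atp7a were also lost without control replicate 3, all but Atp7a and Slc24a2 without control replicate 1, and Slc24a2, Slc12a5 and Slc12a9 without knockdown replicate 1. Adjusted p over the alternatives reached 0.132 for Atp7a, 0.189 for Wnk1, 0.289 for Phactr1, 0.335 for Atp10b, 0.414 for Slc12a5, 0.441 for Slc24a2 and 0.540 for Slc12a9.

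Because FXYD5 is known for its link to cell adhesion, 13 genes (those of cadherin and nectin junctions, and the chemokine gene Ccl2) were read together, and 10 were tested. By limma 0 rose and 0 fell, against 0 higher and 3 lower at an unadjusted p under 0.05 (9.45% of all tested genes were lower), with a median difference of -0.0116. Nectin1 and Nectin2, the genes of 2 junction proteins, had the lowest p, with differences of -0.24 (adjusted p = 0.154) and -0.17 (adjusted p = 0.176). With the replicate block 1 fell (8.91% of all). Of the 10 tested genes 5 had negative differences, against 44.5% of all tested genes. Cdh1 and Ccl2, named here for that link, were below the filter and differed by 0.17 and 0.02.

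**Figure D4:**
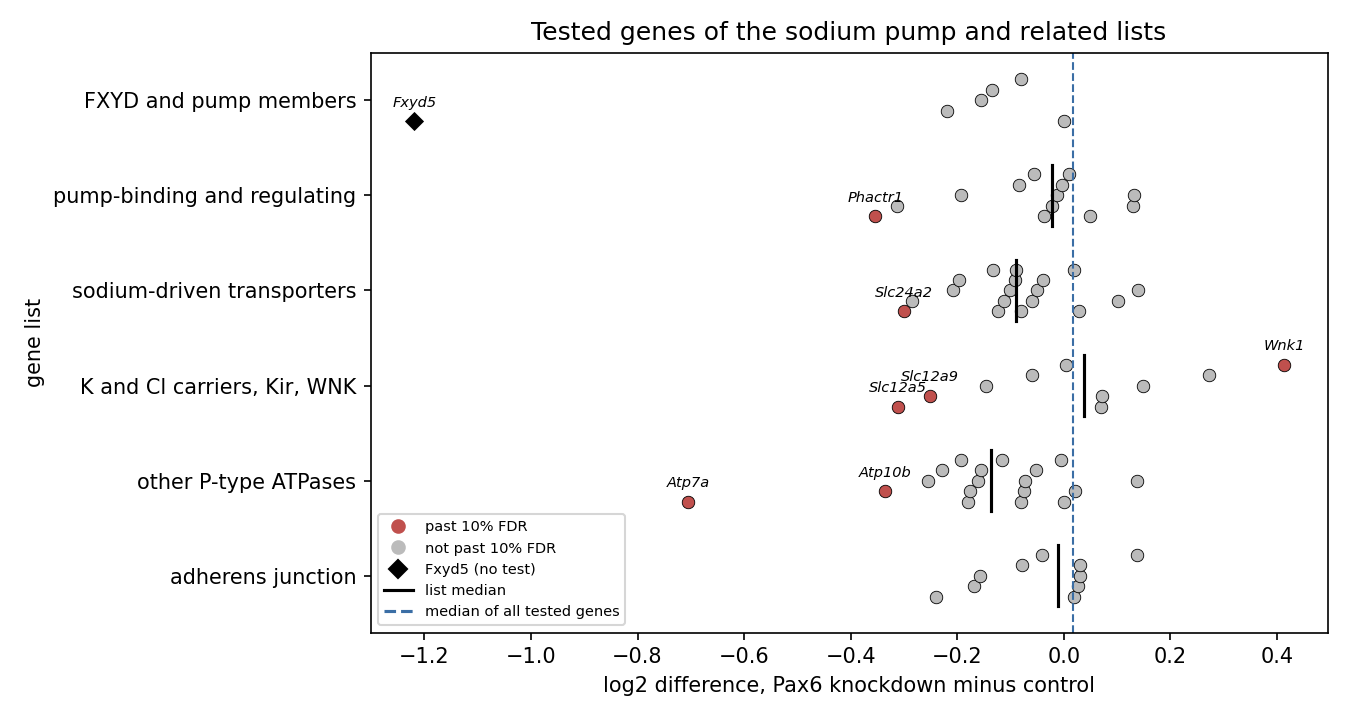
Log2 difference (Pax6 knockdown minus control) of each tested gene in the member set and in the pathway lists, 1 row per list. Each point is a gene, filled points passed 10% FDR (Fxyd5 is shown without a test), and vertical ticks are the medians of the pathway lists, from -0.136 for the P-type ATPases to 0.0373 for potassium and chloride genes. Fxyd5 at -1.22 lies beyond every pathway gene, the nearest being Atp7a at -0.70.

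The labelled cell type was checked against markers. Of 16 noradrenergic neuroblastoma markers 14 had a probe set and all of those passed the filter, whereas 4 of 10 fibroblast markers, 3 of 8 measured glial markers and 1 of 9 measured leukocyte and endothelial markers did. The mean log2 value of the noradrenergic markers was 10.72 to 10.77 on control and 10.46 to 10.56 on knockdown arrays, and 5 of 14 fell (Dbh, Chgb, Slc18a1, Chga and Isl1), against 3.88% of all tested genes. The other 9 did not pass, and Gata2, Hand1, Phox2a, Stmn2 and Tubb3 had differences between 0.01 and 0.12. The mean was 7.31 to 7.38 and 7.22 to 7.41 for fibroblast markers, 7.05 to 7.14 and 7.08 to 7.19 for glial markers, and 6.66 to 6.75 and 6.59 to 6.83 for leukocyte and endothelial markers. By limma 0 markers of those 3 lists passed the test, and 1 fibroblast marker had an unadjusted p under 0.05. The part of the 5 lower noradrenergic markers in the members' values was not tested.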

How the data were processed

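The authors used RMA (background correction and quantile normalization, per the methods), and the deposited values were log2 expression per probe set of 6 arrays (35556 probe sets, 0 missing values). RMA compresses differences near background, and quantile normalization hides changes in total RNA. Versions and annotation build are not given in the sources used here. The number of arrays limits the precision. The study's methods call the samples biological replicates.

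Probe sets were named by platform annotation: 21789 had 1 gene, 1621 several and 12146 none. Of the 1-gene probe sets, 21698 had an identifier in the RefSeq table (GRCm38.p6). For each gene the 1-symbol probe set with the highest mean was kept, and genes above each array's own median on at least 3 arrays were tested (11424 of 19938). Tests used limma 3.58.1 in R 4.3.3 (lmFit, eBayes, two-sided, Benjamini-Hochberg, 10% FDR, the study's threshold), with the code tested on simulated data. SD is over arrays, SE from the moderated fit.

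Members and lists were chosen with earlier results of these data known. Named were all members, Pax6, up to 4 called genes per pathway list by adjusted p (or the 2 of lowest p where none was called), the flanking genes, and the 5 genes most like Fxyd5; the list and marker genes named for a stated link were added. The labels do not say what a replicate number marks. Deviations from group means correlated between same-numbered arrays (0.574, 0.323 and 0.230 for numbers 1, 2 and 3). Between arrays of different numbers the correlation was at most 0.178, for control replicate 3 and knockdown replicate 2. The numbers may thus pair the samples, and a fit with the number as a block was compared. Other alternatives were leaving out each array, other filters, scalings, array weights, probe set means and an intensity trend.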

Additional observations from a re-analysis of the deposited data

How the results depend on the processing

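Over 16 alternatives Fxyd5 stayed lower in all, and Atp1b1, Atp1b2, Atp1b3 and Fxyd6 stayed lower in every alternative that tested them. Filters, the replicate block and the intensity trend cannot change a difference of group means, nor can probe set means for a gene with 1 probe set. A kept sign is therefore informative only where an array was left out or values were rescaled or weighted. For Fxyd5 it also rests on the value the set was chosen on. The number of other members lower at 10% FDR was 0 as reported and 1 with the replicate block (Atp1b3, adjusted p = 0.0857) and 1 with array weights (Atp1b2, adjusted p = 0.00814), whose estimation stopped before full convergence. The difference of Fxyd7 was 0.00088 and changed sign to -0.033 when control replicate 2 was left out, to -0.038 when knockdown replicate 2 was, and to -0.0011 with array weights; over all single omissions it lay between -0.038 and 0.035. Genes of the pathway lists higher at 10% FDR numbered 1 as reported, 2 with the replicate block, 0 with no low-value filter, 0 with the variance filter, 5 with array weights and 0 to 1 when 1 array was left out. Those lower numbered 6 as reported, 13 with the replicate block, 1 with no filter, 3 with the 25th percentile filter, 1 with the variance filter, 28 with array weights and 0 to 7 when 1 array was left out. Over all genes 762 passed as reported, and between 45 (control replicate 2 omitted) and 1304 (knockdown replicate 2 omitted) with 1 array left out. It was 2042 with the replicate block, 4239 with array weights, 245 without a filter, 389 with the 25th percentile filter, 127 with the variance filter and 1383 after a second quantile normalization. The cause was not tested. Signal near background limits Fxyd1 and the further pump genes, which the low-value filter as reported left untested. It also limits Fxyd7, which lay just above that filter. By limma, Fxyd1 had an adjusted p of 0.808 to 0.929 in the 3 alternatives that tested it.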
